A study of Mus musculus with 4 samples.

Results

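Paneth cell products are described here as a set of 41 genes out of 25239 in a bulk RNA-seq count table: the 33 rows whose symbol begins with *Defa* (alpha-defensins), and *Lyz1*, *Reg3a*, *Reg3b*, *Reg3g*, *Mmp7*, *Ang4*, *Itln1* and *Pla2g2a*. The set was chosen by the levels of *Lyz1* and *Defa30*, which were extreme in 1 of the 4 libraries, replicate 4, so the level of these genes in that library, and every comparison that includes it, is given as a description. The libraries were made from NKT cells (T cells that recognize lipids on CD1d) sorted by CD1d tetramer and TCR-β staining. They came from the small intestinal lamina propria (SI-LP) of WT mice, labelled C57BL/6Jax, whose age the labels do not give. The paper's methods state an age range for its mice in general. For the sorting of intestinal NKT cells, they describe an injection of anti-ARTC2 nanobody shortly before harvest. They also give the sorted cells as negative for a dead-cell dye and for B220, CD11b, CD11c and CD8. The sample titles mark replicates 3 and 4 as First and replicates 1 and 2 as Second, which is read here as 2 experiments. The library names also differ between them in prefix and lane code. All 4 libraries belong to 1 condition. The labels do not say whether a library came from 1 mouse or from several, so any p-value measures only the spread between these 4 samples. Lymphoid NKT cell libraries were not analysed here.

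Paneth cells are secretory epithelial cells at the base of the small intestinal crypts, next to the stem cells. Their granules hold alpha-defensins (called cryptdins in mice), which disrupt bacterial membranes, together with lysozyme and other antimicrobial proteins. Matrilysin, encoded by *Mmp7*, cuts mouse pro-alpha-defensins into their active form, and the Wnt pathway, acting through TCF factors, is known for driving Paneth cell maturation. T cells are not known to make these products. In bulk samples such as these, fewer cells of a type and less RNA per cell cannot be told apart.

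Because alpha-defensin genes are near copies of each other, the sequences decide which rows can be read one by one. The 30 *Defa* rows that are not pseudogenes lie within 709.9 kb of chromosome 8 (chr8:21025545-21735471, GRCm38), and 3 pseudogene rows are on the same chromosome. Coding sequences (GENCODE transcripts, GRCm39) are shown for *Defa30*, the defensin with the most counts in replicate 4, and for the close copies *Defa24* and *Defa17*. Capitals mark the bases at which *Defa24* or *Defa17* differs from *Defa30*, and in *Defa30* the bases at which either of them differs.
Defa30: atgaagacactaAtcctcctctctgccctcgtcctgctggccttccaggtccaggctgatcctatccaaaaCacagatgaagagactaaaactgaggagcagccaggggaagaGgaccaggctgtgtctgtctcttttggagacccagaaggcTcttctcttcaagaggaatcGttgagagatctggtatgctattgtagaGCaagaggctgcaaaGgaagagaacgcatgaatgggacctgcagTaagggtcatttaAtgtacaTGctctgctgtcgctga
Defa24: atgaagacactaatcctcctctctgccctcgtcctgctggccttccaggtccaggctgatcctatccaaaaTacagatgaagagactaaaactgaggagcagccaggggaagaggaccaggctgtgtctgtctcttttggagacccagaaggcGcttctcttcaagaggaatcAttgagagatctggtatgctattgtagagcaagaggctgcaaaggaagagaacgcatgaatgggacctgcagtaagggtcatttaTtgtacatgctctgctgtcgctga
Defa17: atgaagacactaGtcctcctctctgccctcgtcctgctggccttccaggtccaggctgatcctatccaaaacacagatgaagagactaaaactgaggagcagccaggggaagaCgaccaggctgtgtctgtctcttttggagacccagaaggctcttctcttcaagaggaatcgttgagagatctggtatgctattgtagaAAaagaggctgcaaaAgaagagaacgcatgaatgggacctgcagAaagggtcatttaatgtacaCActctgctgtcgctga
Of the 282 coding bases of *Defa30*, 4 differed in *Defa24* and 8 in *Defa17*. The coding sequence of *Defa3* was identical to that of *Defa17*, and 6 of 136 pairs of *Defa* coding sequences of equal length were identical.

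Over whole transcripts, a window of 101 bases (the read length given in the labels) distinguished some of these rows and not others. *Defa30* shared 1 of 732 windows with another member, *Defa39* shared 0 of 580, and *Lyz1* shared 22 of 1469 with its paralog *Lyz2*. Counts on these 3 rows can therefore be told apart from those of the other members and *Lyz2*. Only exact matches among these genes were searched, on GENCODE transcripts, and other genes were not compared. *Defa24* shared 1 of 727 windows, but 67.3% of its exon bases are also annotated as *Defa6*, and reads there were not counted. In contrast, *Defa3* shared 393 of its 422 windows and *Defa17* 393 of its 522, and 13 of 31 *Defa* rows with a transcript shared at least 50% of their windows. Primary alignments were counted, so reads from such stretches went to whichever copy the aligner chose, and the levels of *Defa2*, *Defa3*, *Defa5*, *Defa17*, *Defa20*, *Defa32*, *Defa33* and *Defa42* are uncertain one by one. None of *Reg3a*, *Reg3b*, *Reg3g*, *Mmp7*, *Ang4*, *Itln1* and *Pla2g2a* shared a window with another member.

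The 250 bases before the transcription start (RefSeq, GRCm38.p6) were found for 23 of the 41 genes, as 24 promoters. They are shown for *Defa30* (chr8:21134400-21134649, plus strand), for *Defa38* as a minus-strand row (chr8:21096051-21096300, minus strand) and for *Lyz1* (chr10:117292869-117293118, minus strand), since the levels of all 3 were highest in replicate 4. Capitals mark TATAAA, the TATA box letters, and TCAAAG, a core of TCF/LEF sites, searched on both strands.
Defa30: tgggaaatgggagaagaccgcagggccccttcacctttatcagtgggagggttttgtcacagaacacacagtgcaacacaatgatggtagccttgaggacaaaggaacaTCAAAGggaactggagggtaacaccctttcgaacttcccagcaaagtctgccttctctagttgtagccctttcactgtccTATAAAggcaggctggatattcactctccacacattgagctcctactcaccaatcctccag
Defa38: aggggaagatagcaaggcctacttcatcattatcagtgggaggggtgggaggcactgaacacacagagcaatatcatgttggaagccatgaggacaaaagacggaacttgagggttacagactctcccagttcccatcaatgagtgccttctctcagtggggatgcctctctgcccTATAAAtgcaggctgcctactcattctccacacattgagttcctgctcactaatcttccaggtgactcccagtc
Lyz1: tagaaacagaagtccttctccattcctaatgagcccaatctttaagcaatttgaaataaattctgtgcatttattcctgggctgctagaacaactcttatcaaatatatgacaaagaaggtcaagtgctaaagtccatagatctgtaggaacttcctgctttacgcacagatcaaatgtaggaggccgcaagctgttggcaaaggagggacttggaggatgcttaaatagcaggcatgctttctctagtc
TATAAA was present in 15 of 16 *Defa* promoters and in 18 of the 24 promoters of the set, and in 12.4% of all 32851 promoters in the table. TCAAAG was present in 13 of 16 *Defa* promoters and in 17 of 24, and in 13.8% of all. Where TATAAA lay on the coding strand of a *Defa* promoter, it began 29 to 74 bases before the start. *Defa* promoters share their letters by descent, so these shares do not count independent promoters, and a match is a description of the letters alone. The promoters of *Lyz1*, *Ang4* and *Itln1* held neither motif in this window.

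Counts on genes totalled 7233071, 8732858, 5487147 and 3882803 in replicates 1 to 4. Levels are given as CPM, that is, counts relative to a library size adjusted by edgeR's TMM factors, and 3 counts, taken as the lowest level a library can show, correspond to 0.422, 0.292, 0.656 and 0.745 CPM. Of the 41 genes, 31 had a count in any library and 10, all *Defa* rows, had 0 in all 4. At least 10 counts in 1 library or more were reached by 27 genes, of which 20 were *Defa* rows. More than 3 counts in every library were reached by 9 genes (*Lyz1*, *Reg3b*, *Reg3g*, *Itln1* and 5 *Defa* rows), while 28 genes had 0 counts in replicate 3.

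Taken as a whole, the set held 0.0526% of the counts of replicate 1 (95% Wilson interval 0.0510% to 0.0543%), 0.114% of replicate 2 (0.112% to 0.116%), 0.00423% of replicate 3 (0.00372% to 0.00481%) and 4.78% of replicate 4 (4.756% to 4.798%). These intervals cover counting error only. The summed level was 534.9, 968.6, 50.7 and 46040 CPM in replicates 1 to 4, with a mean of 11900 ± 22760 CPM (SD, n = 4), so the spread between libraries was larger than the mean. Without replicate 4 the mean was 506 CPM. Both extremes belonged to the first experiment. The highest library stood 907-fold over the lowest, 86.1-fold without replicate 3 and 18.4-fold without replicate 4.

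**Figure D1:**
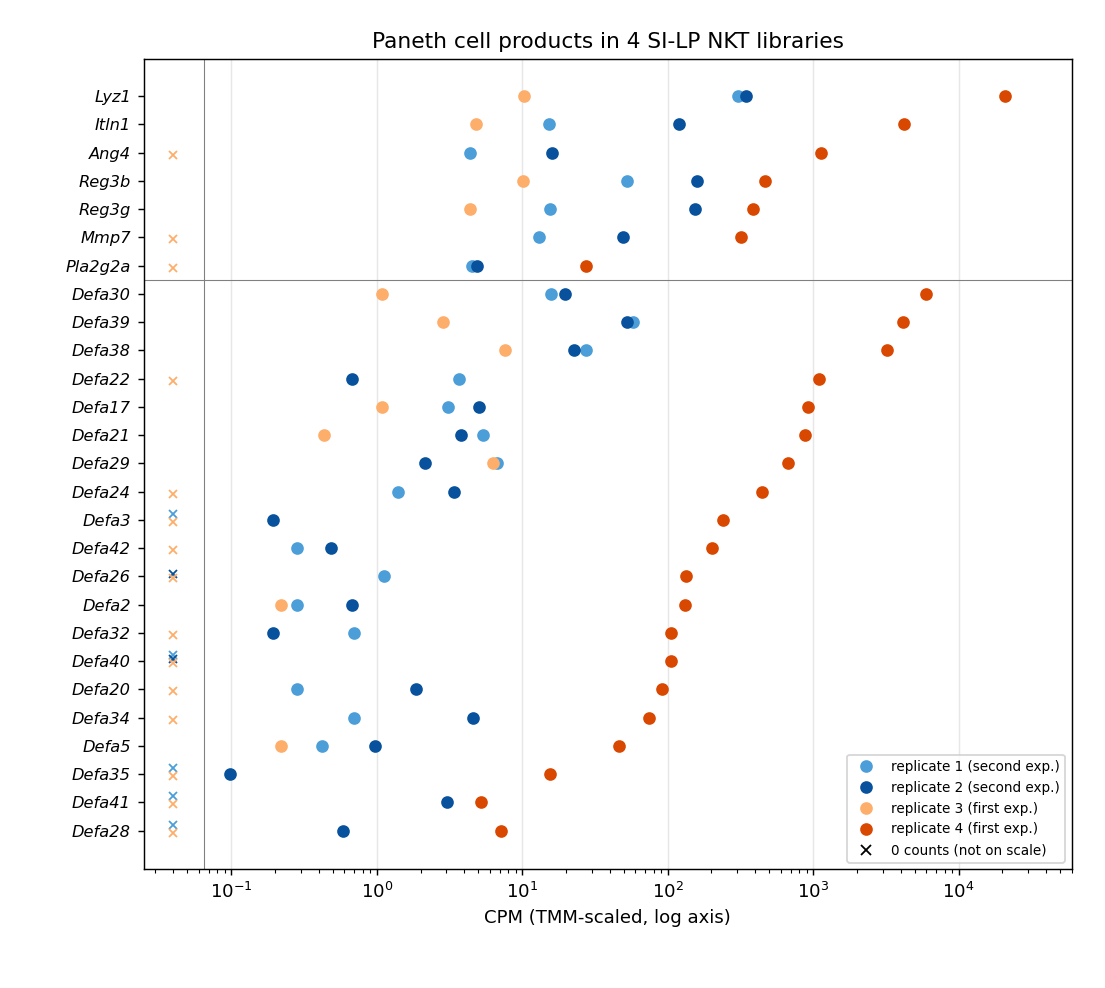
CPM (log axis) of the 27 Paneth cell genes with at least 10 counts in a library, 1 point per library, with crosses at the left edge for libraries with 0 counts. Replicate 4 lies to the right of the other 3 libraries for all 27 genes, from 5.21 CPM for *Defa41* to 20930 CPM for *Lyz1*, while *Reg3b*, *Reg3g* and *Defa41* of replicate 2 come within 3-fold of it.

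*Lyz1*, which encodes the lysozyme of Paneth cell granules (chromosome 10, 117287795 to 117292868, minus strand), had the highest TPM (length-corrected expression) of the set in replicates 1, 2 and 4, whereas in replicate 3 it had 20.4 TPM, below *Defa38* (42.3), *Reg3b* (33.3) and *Defa29* (31.4). Its level was 305 CPM in replicate 1, 344 CPM in replicate 2, 10.3 CPM in replicate 3 and 20930 CPM in replicate 4. The libraries of the second experiment lay close together, and those of the first lay on either side of them. By TPM, *Lyz1* ranked 200, 151, 5282 and 2 among all genes of replicates 1 to 4. *Lyz2*, its paralog in macrophages and neutrophils, had 36.4, 20.9, 8.53 and 51.9 CPM, so the ratio of *Lyz1* to *Lyz2* counts was 8.38 (95% Wilson interval 7.37 to 9.53), 16.4 (14.3 to 18.9), 1.21 (0.791 to 1.84) and 403 (352 to 462). *Lyz1* thus had more counts than its myeloid paralog in 3 libraries, while the interval of replicate 3 included equal counts.

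Among the alpha-defensins, *Defa30* (chromosome 8, 21134650 to 21135598, plus strand) had 15.9, 19.8, 1.09 and 5995 CPM in replicates 1 to 4, the level in replicate 3 resting on 5 counts. In replicate 4 it ranked 3 among all genes by TPM, at 38460 TPM beside 41390 TPM for *Lyz1*. Its level there was 303-fold over the next library, against 60.8-fold for *Lyz1*. These margins belong to the library that chose the set. *Defa22* had 3.66, 0.682, 0 and 1094 CPM, and *Defa21*, which shares 131 windows with it, 5.34, 3.80, 0.437 and 881.5 CPM. *Defa17* had 3.09, 5.06, 1.09 and 922 CPM and *Defa24* 1.41, 3.41, 0 and 443 CPM. In all 4 of these rows replicate 4 was over 100-fold above every other library, the values in the other libraries resting on 52 counts or fewer.

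The 5 *Defa* rows on the minus strand (*Defa29*, *Defa38*, *Defa39*, *Defa42* and *Defa43*) have coding sequences of 351 bases that differ from each other at 14 bases or fewer. *Defa29*, *Defa38* and *Defa39* are known as cryptdin-related sequences, diverged and cysteine-rich relatives of the cryptdins. *Defa39* (21702524 to 21703647) had 57.5, 52.9, 2.84 and 4161 CPM and *Defa38* (21094971 to 21096050) 27.4, 22.7, 7.66 and 3222 CPM. By TPM, *Defa39* was above *Defa30* in replicates 1 to 3 (340, 320.0 and 14.3 TPM against 121, 153 and 7.04 TPM) and below it in replicate 4 (20820 against 38460 TPM). *Defa29* (21325888 to 21327020) had 6.75, 2.14, 6.34 and 674 CPM, so that replicate 3 was above replicate 2 and near replicate 1. *Defa39* and *Defa38* ranked 4 and 5 by TPM among all genes of replicate 4. *Defa42* had 0.281, 0.487, 0 and 202 CPM, and *Defa43*, whose exons lie within it, had 0 counts throughout.

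The remaining 11 *Defa* rows with at least 10 counts in a library reached from 5.21 CPM (*Defa41*) to 239 CPM (*Defa3*) in replicate 4. Elsewhere they lay between 0 and 4.58 CPM (*Defa34* in replicate 2). *Defa40* had 425 counts in replicate 4 and 0 in the other 3 libraries, and *Defa3* had 964 counts in replicate 4 and 2 or fewer elsewhere. *Defa41* was the exception, with 31 counts in replicate 2 and 21 in replicate 4, at 3.02 and 5.21 CPM. *Defa-ps1*, *Defa27*, *Defa33* and, among the lectins, *Reg3a* had from 2 to 8 counts in their highest library.
Of the 10 rows at 0 in all libraries, 7 overlap the exons of another row on the same strand. *Defa23* and *Defa31* are annotated over the same 2 loci, as are *Defa36* and *Defa37*. The exons of *Defa4* lie within *Defa35*, those of *Defa6* within *Defa24* and those of *Defa43* within *Defa42*, rows whose own counts miss 41.4%, 67.3% and 75.8% of their exon bases. Reads on exon bases shared by 2 rows were not counted for either, so a 0 on these 7 rows does not show absence of their RNA. The other 3 (*Defa25*, *Defa-ps12* and *Defa-ps13*) overlap no other row.

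*Mmp7*, the pro-defensin protease (chromosome 9, 7692090 to 7699585), had 13.1, 49.2, 0 and 320.5 CPM in replicates 1 to 4. *Ang4*, a ribonuclease of Paneth cell granules (chromosome 14, 51763892 to 51773590), had 4.36, 16.0, 0 and 1128 CPM. *Itln1*, the lectin intelectin-1 made by Paneth and goblet cells (chromosome 1, 171518124 to 171535294), had 15.3, 120.1, 4.81 and 4235 CPM. These 3 genes shared the order replicate 4, 2, 1, 3. Against the floor of replicate 3, replicate 4 was at least 488.5-fold higher for *Mmp7* and at least 1719-fold higher for *Ang4*.
*Pla2g2a*, a secreted phospholipase that C57BL/6 mice are known to carry in a defective form (chromosome 4, 138831857 to 138835189), was low, with 4.499, 4.868, 0 and 27.6 CPM.

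The Reg3 lectins, which bind bacterial cell walls, are made by enterocytes as well as by Paneth cells. *Reg3b* (chromosome 6, 78370885 to 78373466) had 52.2, 158, 10.1 and 467 CPM and *Reg3g* (78466269 to 78468874) 15.5, 153, 4.37 and 385 CPM. Replicate 4 was 2.95-fold over replicate 2 for *Reg3b* and 2.51-fold for *Reg3g*, the narrowest margins of the set after *Defa41*. *Reg3a*, the third lectin of this cluster, had 0, 1, 6 and 1 counts.

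The make-up of the set was compared within each library, where scaling plays no part. *Lyz1* took 57.1%, 35.5%, 20.3% and 45.5% of the set's counts in replicates 1 to 4 (mean 39.6% ± 15.6, SD, n = 4), and the *Defa* rows together 23.3%, 12.7%, 39.2% and 40.3% (28.9% ± 13.3). *Reg3b* and *Reg3g* together took 12.6%, 32.1%, 28.4% and 1.85% (18.8% ± 14.1). In replicate 4 the Reg3 share was thus the lowest of the 4, although its Reg3 level was the highest. The plus-strand *Defa* rows took 6.15%, 4.64%, 6.03% and 22.4%, whereas the minus-strand rows took 17.2%, 8.07%, 33.2% and 17.9%. *Defa30*, a plus-strand row that chose the set, took 2.97%, 2.04%, 2.155% and 13.02%. The plus-strand share of replicate 4 thus rests in large part on *Defa30* and is given as a description. The counts of replicate 3 total 232, and its interval for *Lyz1* runs from 15.6% to 25.9%.

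**Figure D2:**
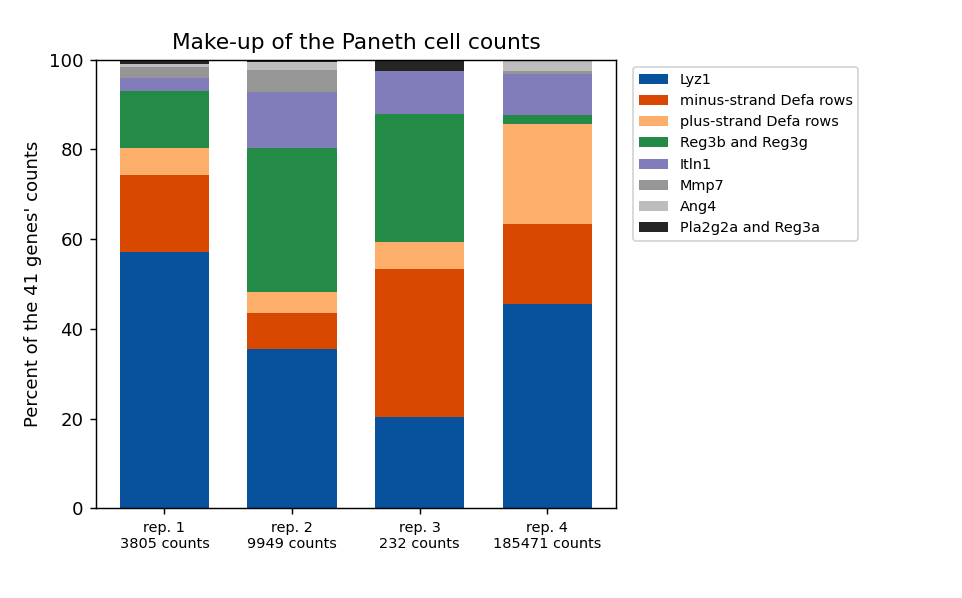
Percent of the counts on the 41 genes taken by each gene or group, 1 bar per library, with the number of counts under each bar. *Lyz1* takes from 20.3% to 57.1%, and *Reg3b* and *Reg3g* shrink to 1.85% in replicate 4, where plus-strand *Defa* rows reach 22.4%. *Defa30*, a plus-strand row that chose the set, takes 13.02% in that library.

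Some ratios of single genes stood apart in replicate 4 and others did not. There were 19.2 counts of *Lyz1* per count of *Defa30* in replicate 1 (95% Wilson interval 15.9 to 23.2), 17.4 in replicate 2 (15.1 to 20.1), 9.40 in replicate 3 (3.85 to 22.9) and 3.49 in replicate 4 (3.44 to 3.54). The interval of replicate 4 lay below those of the other 3, which overlapped each other. Per count of *Defa30* there were 3.62, 2.67, 2.60 and 0.694 counts of *Defa39*. For *Reg3b* the ratio to *Defa30* was 3.28, 7.995, 9.20 and 0.0778. These ratios to *Defa30* use a gene that chose the set. The ratio of *Defa29* to *Defa30* in replicate 4 (0.112) was within the interval of replicate 2 (0.0700 to 0.168). Those of *Reg3b* to *Reg3g* (1.21 in replicate 4, 1.03 to 3.37 in the others) and of *Itln1* to *Lyz1* (0.202 in replicate 4, 0.0502 to 0.468 in the others) lay within the range of the other libraries. Each ratio comes from 1 library and has no replicate check.

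Within each experiment, the 2 libraries were compared on the log2 CPM scale (prior count 2) over the 11689 genes that reached 10 counts in 2 or more libraries, among them 19 members. With 1 library on each side there was no test. All 19 were higher in replicate 4 than in replicate 3 by more than 1 log2 unit, as were 30.8% of all genes, but this contrast holds the library that chose the set. Replicate 2 against replicate 1 involves it in the filter alone, through which *Defa5*, *Defa20*, *Defa22*, *Defa34* and *Defa41* passed. There, 9 of 19 members were higher by more than 1 log2 unit, as were 34.2% of all genes, and 2 members were lower. The median difference was 0.81 for the members and 0.13 for all genes. With a filter of 20 counts over replicates 1 and 2 together, chosen after seeing the data, 9 of 18 members and 36.7% of 12123 genes were higher, and again 2 members were lower.
Higher in replicate 2 were *Reg3g* (difference 3.28), *Itln1* (2.95), *Mmp7* (1.89), *Ang4* (1.80) and *Reg3b* (1.59), that is, most of the members that are not defensins, and *Defa41* (3.43), *Defa34* (2.27), *Defa20* (1.87) and *Defa24* (1.12). Lower in replicate 2 were *Defa22* (-2) and *Defa29* (-1.53). The most abundant genes of the set lay close between these 2 libraries, with differences of 0.17 for *Lyz1*, 0.31 for *Defa30*, -0.12 for *Defa39* and -0.27 for *Defa38*.

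**Figure D3:**
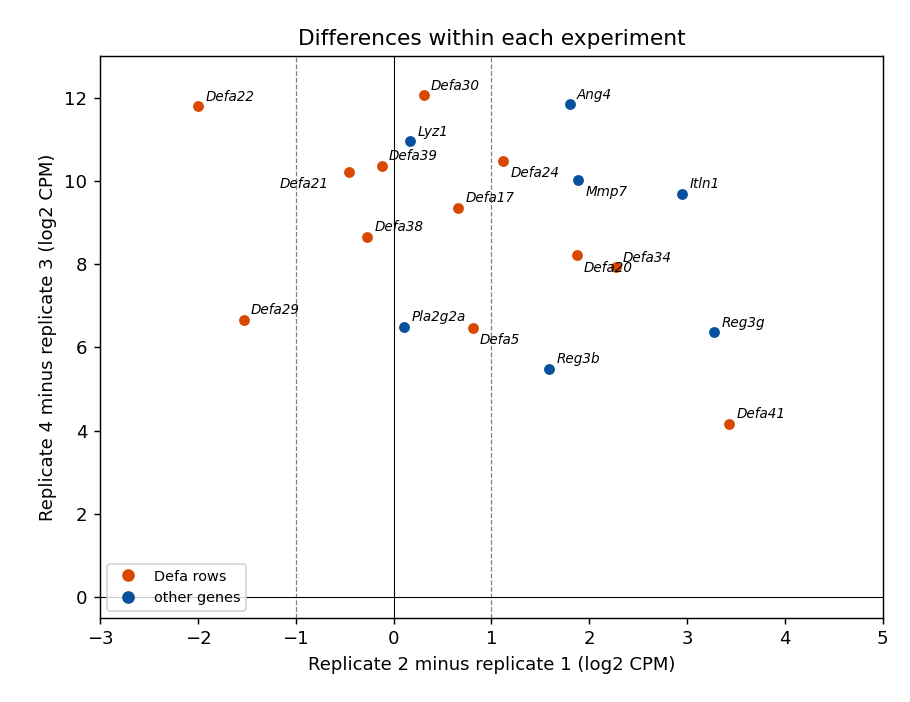
Difference in log2 CPM between replicates 4 and 3 (vertical axis) and between replicates 2 and 1 (horizontal axis) for the 19 members that passed the filter, 1 point per gene, with dashed lines at 1 log2 unit. All points lie above 4 on the vertical axis, while horizontally they spread from -2 (*Defa22*) to 3.43 (*Defa41*).

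The second experiment was then compared with the first, to measure how the set varied between experiments. By the quasi-likelihood test of edgeR, adjusted after Benjamini and Hochberg, 0 of 11689 genes (0%) passed an adjusted p of 0.05, and 248 had an unadjusted p below that value. Of the 19 members tested, 0 were called and 7 had an unadjusted p under 0.05. DESeq2 called 41 of 10329 genes (0.397%), 4 of them members. Fitted log2 differences (second minus first) were -7.43 (SE 2.94) for *Defa30*, -5.05 (SE 2.57) for *Lyz1* and -1.22 (SE 1.45) for *Reg3b*, and all 19 members had a negative sign. These differences, and the 4 calls of members by DESeq2, rest on replicate 4 and are given as a description.
The direction turned when replicate 4 was left out. Against replicate 3 alone, which was assumed to vary like the other libraries, 13 of 14 members had a higher fitted level in the second experiment. With replicate 3 alone on its side, only fitted differences are given here. The filter could be passed through the libraries of the second experiment alone. *Defa17*, *Defa21*, *Defa24*, *Defa30*, *Mmp7*, *Ang4* and *Pla2g2a* passed in this way, with 5 counts or fewer in replicate 3. Selection therefore favoured their sign. The share of all genes with this sign is not given, so the count of 13 has no background beside it. Among the 14 members, *Lyz1* differed by 4.94 (SE 1.19) and *Defa39* by 4.23 (SE 1.72). *Defa29* was the member with a negative sign, at -0.57 (SE 2.24).

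Other genes linked to Paneth cells were listed too, among them transcription factors, receptors and some further secreted products. Of 27 listed, 25 were in the table and 23 passed the filter. None was called between experiments by the edgeR test, nor was any of the 11689 genes tested. Their summed level was 1302, 2209, 608 and 2275 CPM in replicates 1 to 4. *Cd24a*, a surface marker of Paneth cells and of other crypt cells, had 98.8, 803, 2.41 and 438 CPM. *Xbp1*, a transcription factor of secretory cells including plasma cells, had 290.4, 480.3, 130.1 and 134 CPM. *Ern1*, the stress sensor upstream of *Xbp1*, had 351, 145, 282 and 42.7 CPM, and *Fzd5*, a Wnt receptor, 243, 157, 141.5 and 261 CPM. None of these 4 genes stood above the other libraries in replicate 4 by a margin like that of the defensins. Some secreted products in the list were picked out after their values were seen. *Mptx2*, a pentraxin of Paneth cells, had 1.55, 2.04, 0 and 433 CPM. *Pnliprp2*, a lipase, had 20.8, 24.5, 0 and 201 CPM and *Habp2*, a protease, 0, 0, 0 and 28.6 CPM. Others lacked such a margin in replicate 4. *Clps* had 183.5, 109.3, 0 and 280 CPM and *Guca2a* 0, 142.5, 1.97 and 124.6 CPM. *Guca2a*, *Mptx1*, *Ttr* and *Egf* were lower in replicate 4 than in replicate 2. More than 1 log2 unit higher in replicate 4 than in replicate 3 were 17 of the 23 genes, beside 30.8% of all genes, and 1 was lower. In replicate 2, 13 were higher than in replicate 1, beside 34.2% of all genes, and 3 were lower.

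Markers of other cell types were measured beside the set. Pan-epithelial genes (11, such as *Krt19*, *Cdh1* and *Epcam*) summed to 366, 3774, 41.1 and 2915 CPM in replicates 1 to 4, and goblet cell genes (10, such as *Fcgbp* and *Muc2*) to 583, 10380, 236 and 6176 CPM. The sums were 334, 1387, 272 and 3550 CPM for enterocyte genes (11, such as *Fabp2* and *Anpep*), and for crypt stem cell genes (7 of 8 in the table, such as *Olfm4*) 163, 1193, 48.1 and 1337 CPM. By these sums, replicates 2 and 4 were the 2 libraries with high epithelial markers. Replicate 3 had the lowest sum for each of these 4 lists. Gene by gene, the enterocyte markers were not raised as a set in replicate 2. Against replicate 1, 4 of the 11 were more than 1 log2 unit higher and 3 were lower, with a median difference of -0.05. The members did not follow the pan-epithelial list in proportion. Per 100 pan-epithelial counts, the set had 146, 25.7, 123 and 1580 counts in replicates 1 to 4, and the *Defa* rows 34.1, 3.26, 48.4 and 636.5. For *Reg3b* and *Reg3g* the numbers were 18.5, 8.24, 35.1 and 29.2, a narrower range in which replicate 4 lay inside that of the other libraries. Per 100 enterocyte counts they were 20.2, 22.4, 5.30 and 23.99, with replicate 4 the highest.

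**Figure D4:**
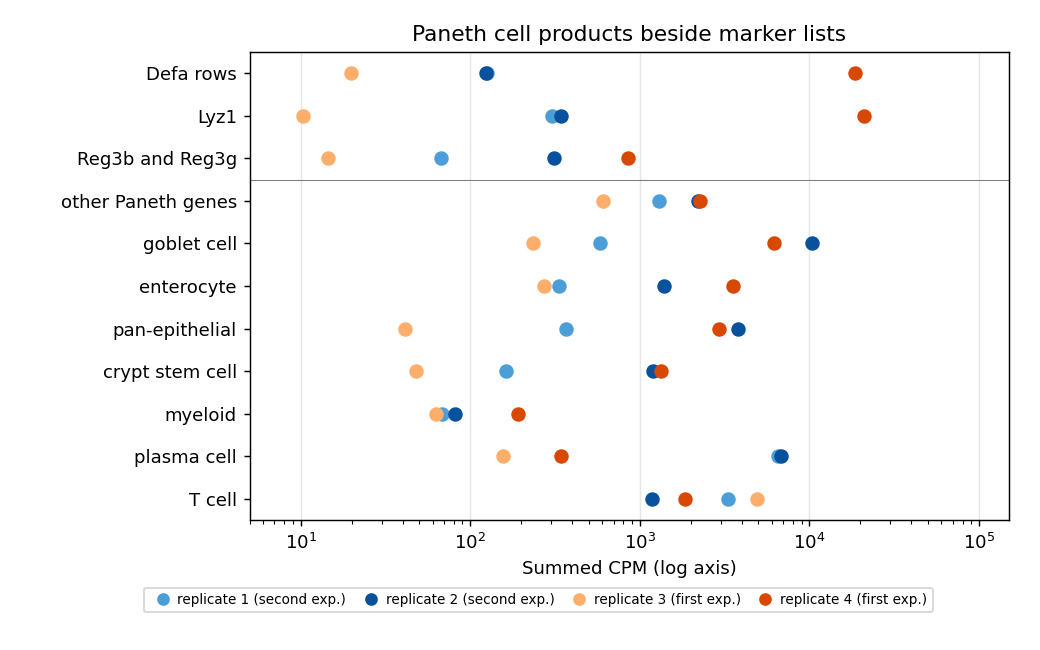
Summed CPM (log axis) of the *Defa* rows, *Lyz1* and the 2 Reg3 genes (above the line) and of marker lists (below it), 1 point per library. Replicate 4 exceeds replicate 2 for the *Defa* rows and *Lyz1* (18550 against 123 CPM and 20930 against 344 CPM), while the pan-epithelial and goblet cell lists are higher in replicate 2.

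T cell genes (9, such as *Cd3e*) summed to 3327, 1177, 4883 and 1845 CPM in replicates 1 to 4, and each of the 9 had more than 3 counts in every library, as befits libraries labelled as T cells. The 2 libraries with the lower T cell sums were those with the higher epithelial sums. Myeloid genes (11, such as *Lyz2*) summed to 68.3, 81.6, 62.8 and 193 CPM, with 4 and 2 of the 11 at 0 in replicates 1 and 2 and none at 0 in replicates 3 and 4. All 10 neutrophil genes were at 0 in replicates 1 to 3, and in replicate 4 they summed to 15.1 CPM with 5 at 0. The sums of plasma cell genes (6, such as *Jchain*) divided the experiments instead. They were 6529 and 6781 CPM in the second experiment (replicates 1 and 2) but 155 and 344.5 CPM in the first (replicates 3 and 4). Most of the sums in the second experiment was *Jchain*, with 6189, 6490, 2.41 and 194 CPM in replicates 1 to 4. *Prdm1* had 158, 130, 148.5 and 105 CPM and did not divide the experiments. The other genes of this list were higher in both libraries of the second experiment than in either of the first. *Rn45s*, a ribosomal RNA precursor gene, took 11.4%, 7.36%, 28.1% and 21.6% of the counts. The part of epithelial RNA, and of any of these measures, in the levels of the Paneth cell products was not tested.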

How the data were processed

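Paired-end RNA-seq reads (101 bases, per the labels) of 4 sorted SI-LP NKT cell samples were used as raw counts per gene deposited by the authors. Per the file header, they were made with featureCounts 1.6.4 on exons of a RefSeq annotation, counting primary alignments, with no strand option and no assignment of reads that overlap several genes. The methods name HISAT2 and GRCm39, whereas the submitters' processing notes name GRCm38.p6 and Bowtie2 among the tools. Positions are on GRCm38, as deposited. Of 6 library columns, 2 match no sample label and were not used. TPM was computed with the deposited lengths of the genes.

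CPM used edgeR's TMM factors over all genes. Genes that reached 10 counts in 2 or more libraries were compared between experiments by edgeR's quasi-likelihood test (adjusted p under 0.05), and within experiments by log2 CPM differences over 1. Shares carry 95% Wilson intervals. Intervals and the floor of 3 counts cover counting error only, since reads had no molecular identifiers. All members were named, with values in each library where 1 library had at least 10 counts. At most 4 genes of each marker list were named, by mean CPM, beside further secreted products of the Paneth cell list. The members and lists were chosen with earlier results of these data known. No multigene copy was resolved beyond the authors' counting, and without strand, overlapping genes on opposite strands cannot be told apart. *Mmp7* shares 11.0% of its exon bases with another row.

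On simulated counts with a dispersion of 0.05, the edgeR test between experiments found 179 of 195 genes shifted by 2 log2 units, with 2 false calls among 11560 genes, and 187 of 187 shifted by 4, with 9 false calls among 11551. With the dispersion of these libraries, 0.953, it recovered 0 of 187 and 0 of 178. Alternatives were DESeq2, other scalings (median-of-ratios, total counts, without *Rn45s*), prior counts, filters and each replicate left out. Figures were drawn with matplotlib 3.10.9, tables handled in Python 3.11.15 (pandas 2.3.3, scipy 1.17.1, numpy 2.4.6) and models fitted in R 4.3.3 with DESeq2 1.42.0 and edgeR 4.0.16.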

Additional observations from a re-analysis of the deposited data

Results flagged for a closer look

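In 24 of 31 results examined, 1 library stood apart by Dixon's criterion for 4 values (a gap to the nearest other library, divided by the whole range, above the 95% critical value). For normally distributed values, chance alone would flag about 1 in 20, or 1.55 of 31, and whether CPM values meet this was not checked. The results are not independent, since the same 4 libraries enter each, and the library standing apart was the one that chose the genes, so the gaps are a description. The summed CPM of the set had a gap of 0.980. Of the 27 members examined, 23 stood apart, each with replicate 4 as the high library. The gap was not computed for genes outside the set, so no share of all genes stands beside this count. Outside the defensins, the gap was 0.986 for *Ang4*, 0.984 for *Lyz1*, 0.973 for *Itln1* and 0.847 for *Mmp7*. Among the *Defa* rows, it was 0.993 for *Defa29*, 0.994 for *Defa35*, 0.993 for *Defa32*, 0.994 for *Defa21*, 0.999 for *Defa3*, 0.997 for *Defa22*, 0.983 for *Defa5*, 0.996 for *Defa17*, 0.997 for *Defa30*, 0.987 for *Defa39*, 0.939 for *Defa34*, 0.919 for *Defa28*, 0.998 for *Defa42*, 0.996 for *Defa2*, 1 for *Defa40*, 0.980 for *Defa20*, 0.994 for *Defa38*, 0.992 for *Defa24* and 0.992 for *Defa26*. *Reg3b*, *Reg3g*, *Pla2g2a* and *Defa41* did not stand apart, and neither did the shares of the set's counts taken by *Lyz1*, by the *Defa* rows and by the 2 Reg3 genes.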

How the results depend on the processing

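No paired analysis was possible because the 4 libraries belong to 1 group. The mean CPM of each of the 27 named members moved by less than 1 SD in all 81 values under other scalings. For each of them the SD was larger than the mean, so no fall of a mean could reach 1 SD. All 108 values with a replicate left out, replicate 4 included, also moved by less than 1 SD. This measure therefore says little about stability. Means rest on replicate 4: without it, the mean was 506 in place of 11900 CPM for the set, 215 in place of 5400 for *Lyz1* and 12 in place of 1510 for *Defa30*. Total counts without TMM factors moved the median difference of all genes to 0.40 (replicate 4 against 3) and 0.39 (replicate 2 against 1). The count of members higher in replicate 4 than in 3 was 30 of 31 without a filter (32.7% of all genes) and 7 of 7 with at least 10 counts in all 4 libraries (17.4%), and higher in replicate 2 than in 1 it was 3 of 7 with the latter filter (23.5%). Between experiments, DESeq2 called 41 of 10329 genes and 4 of 18 members, and edgeR without a filter 60 of 16223 genes and 17 of 31 members. Both fits hold replicate 4, which chose the set. Without a filter, some members entered through that library alone, such as *Defa40*, with 425 counts there and 0 elsewhere. These calls of members are therefore a description. Leaving out each replicate gave 0 to 7 genes and 0 to 6 members, the calls coming without replicate 3 (7 genes, 6 members, a fit that sets replicate 4, which chose the set, alone against the second experiment) and without replicate 4 (6 genes, 0 members). The cause of these changes was not tested. The mean share on *Defa* rows was 28.9% of counts and 47.0% per base of gene length, since these genes are short. Leaving out each library in turn, which like the correction for length was chosen for the shares after seeing the data, gave 33.7% to 46.0% for *Lyz1*, 25.1% to 34.3% for the *Defa* rows and 14.3% to 24.4% for the Reg3 genes. At the spread of these libraries the edgeR test made no calls in simulated counts, so calls of 0 between experiments say little.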

Other observations

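Other antimicrobial genes were listed outside the set (33, of which 32 were in the table and 14 had 0 counts in all 4 libraries). Their summed level was 864, 2268, 185 and 2344 CPM in replicates 1 to 4. *Lypd8*, an epithelial protein that binds flagellated bacteria, had 204, 1623, 15.3 and 994 CPM, and *Zg16*, a lectin of goblet cell mucus, 72.3, 117, 37.8 and 870.3 CPM. *Reg1*, a lectin of the same family as the Reg3 genes, had 493, 219, 0 and 17.6 CPM, so its order of libraries was unlike that of *Reg3b* and *Reg3g*. *Pglyrp1*, a peptidoglycan-binding protein, had 2.95, 120.5, 26.5 and 115 CPM. Of the 12 listed genes that passed the filter, 10 had a log2 CPM in replicate 4 more than 1 above that in replicate 3, and 1 was lower by as much. Against replicate 1, replicate 2 was higher by this margin for 7 and lower for 3. The shares of all genes higher were 30.8% and 34.2%.

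Marker sums of rarer epithelial lineages lay below those of the pan-epithelial list in every library. Enteroendocrine genes (7, such as *Chgb*) summed to 39.6, 268, 0 and 115 CPM in replicates 1 to 4. Tuft cell genes (6, such as *Sh2d6*) summed to 29.7, 3.60, 0.656 and 27.1 CPM, with 4 of 6 at 0 in replicate 2 and 5 of 6 in replicate 3.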
